A study of Drosophila melanogaster with 3 samples.

Results

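Weaker distal peaks that every replicate held formed a set of 845 regions among 30000 pooled peaks of lilli-eGFP chromatin immunoprecipitation in Drosophila embryos. They were chosen by signal and position. From the pooled list, the 6970 peaks that the authors kept as optimal were set aside, which left 23030 lower-ranked peaks, and 16617 of these had a summit more than 500 bp from every annotated transcription start site (TSS). A peak was a member if each of the 3 replicate lists had a summit within 100 bp of its own among that list's first 15000 peaks by signal. The members made up 5.09% of the lower-ranked distal peaks. The remaining 15772 are called other lower-ranked distal peaks below, and the optimal peaks more than 500 bp from a TSS, of which there were 3105, are called optimal distal peaks.

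The samples were 3 biological replicates of whole embryos aged 0 to 24 h, of both sexes together, and formed 1 group. The flies were a transgenic line that stably expresses the lilli protein with green fluorescent protein (GFP) fused to its C terminus, and sonicated chromatin of 200 to 800 bp was precipitated with an antibody to GFP. No other genotype, stage or mock precipitation was analysed here, so every comparison is between regions of the genome or between replicates, and no test between groups of samples was possible. Summit and flank could be compared within each replicate, over 3 pairs. The lists hold peaks and no reads, so sequencing depth is unknown, and fewer bound cells cannot be told apart from weaker binding per cell in whole embryos.

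The lilli gene encodes Lilliputian, the AF4/FMR2 family protein of flies. It is a scaffold of the Super Elongation Complex, which brings the kinase P-TEFb to paused RNA polymerase II and so helps the polymerase into productive elongation. Elements far from start sites, among them enhancers, are often found in introns and between genes and tend to be open and nucleosome-poor when active. Peaks that fall short of a reproducibility threshold in a mixed sample can come from sites used in few cells or at a short stage as well as from background. The deposited −log10 q-value of a peak bears on background, but which of these a member came from was not tested.

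The sequences of 7 members are given here because they hold the strongest members and those with the words that stood highest over their flanks. Each shows the plus strand of the dm6 assembly from 100 bp before to 100 bp after the pooled summit, with the bases from RefSeq's Release 6 genome. Capitals mark matches on either strand to TGTTTAC, the core bound by forkhead proteins, to the GATA factor word AGATAAG, or to a run of 8 A. The first 3 had the highest pooled signals of all members.
SKIP intron 4, chr3R:22260275-22260475: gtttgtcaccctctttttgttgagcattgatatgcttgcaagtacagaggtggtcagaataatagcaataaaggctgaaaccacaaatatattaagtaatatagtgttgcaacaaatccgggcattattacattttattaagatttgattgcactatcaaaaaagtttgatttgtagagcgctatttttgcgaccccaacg
Neto intron 1, chrX:13447551-13447751: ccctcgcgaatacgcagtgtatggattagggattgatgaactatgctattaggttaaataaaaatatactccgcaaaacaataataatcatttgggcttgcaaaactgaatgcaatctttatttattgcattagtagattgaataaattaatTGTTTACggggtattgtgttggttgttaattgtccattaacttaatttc
sNPF-R intron 2, chr3L:20062671-20062871: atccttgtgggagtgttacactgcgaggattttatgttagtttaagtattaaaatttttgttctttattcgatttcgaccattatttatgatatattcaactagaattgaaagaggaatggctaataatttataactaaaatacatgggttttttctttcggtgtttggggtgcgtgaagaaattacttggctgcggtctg
The next 3 were the strongest further members with each of these words.
X intergenic, chrX:4032992-4033192: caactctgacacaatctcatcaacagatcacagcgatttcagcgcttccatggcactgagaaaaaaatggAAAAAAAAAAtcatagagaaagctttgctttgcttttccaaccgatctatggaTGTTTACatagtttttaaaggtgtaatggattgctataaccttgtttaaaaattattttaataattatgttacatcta
kibra intron 1, chr3R:14713454-14713654: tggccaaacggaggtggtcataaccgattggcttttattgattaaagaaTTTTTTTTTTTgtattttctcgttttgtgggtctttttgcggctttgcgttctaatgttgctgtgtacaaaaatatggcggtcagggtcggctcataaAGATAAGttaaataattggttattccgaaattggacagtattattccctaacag
CG14441 intron 1, chrX:6702282-6702482: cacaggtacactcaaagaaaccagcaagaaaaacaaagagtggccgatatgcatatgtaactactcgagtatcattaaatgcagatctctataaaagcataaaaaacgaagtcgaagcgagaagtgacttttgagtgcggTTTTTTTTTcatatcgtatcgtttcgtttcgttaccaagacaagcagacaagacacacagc
The last had the best worst place in the replicates among members whose sequence is shown here.
upstream of tara, chr3R:16224636-16224836: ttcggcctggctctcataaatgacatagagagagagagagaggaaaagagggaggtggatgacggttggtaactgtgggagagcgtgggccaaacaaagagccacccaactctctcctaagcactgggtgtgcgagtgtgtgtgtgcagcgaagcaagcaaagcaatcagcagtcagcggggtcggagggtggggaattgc
The window in SKIP, which encodes a protein that interacts with the Shal potassium channel, had 34.8% G+C and none of the 3 words. The window in Neto, an auxiliary subunit of glutamate receptors, had 31.3% G+C and 1 match to TGTTTAC. The window in sNPF-R, the receptor of short neuropeptide F, had 32.8% G+C and again no match. The window upstream of tara, a trithorax group gene, stood apart at 55.2% G+C and held none of the 3 words.

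The signal values that chose the members are described first, without a test. The pooled signal, the authors' own value for each peak, ran from 30.2 to 111.95 with a median of 94.1, and the 3 weakest optimal peaks stood just above at 112.009, 112.011 and 112.015. The pooled −log10 q-value of members had a median of 2.79, quartiles of 2.40 and 3.35 and a minimum of 0.185. The 3 strongest members were the intronic peaks of SKIP (111.95), Neto (111.934) and sNPF-R (111.896) whose sequences are given above. In the pooled list the SKIP peak had place 6975, and it had places 8874, 9980 and 5692 in replicates 1, 2 and 3. The Neto peak had places 11407, 8324 and 5341, and the sNPF-R peak had places 6865, 8858 and 7462. Of the other 7 of the 10 strongest members, 6 lay in introns of CG1677, CG14196, CG14441, dao, aus and CG42747, and 1 lay between genes. So 9 of the 10 strongest were intronic and none lay in an exon.

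Members were mostly the next peaks below the authors' threshold. Their median pooled place was 8368, against 20013.5 for other lower-ranked distal peaks. At places 6971 to 8000, 318 of 553 lower-ranked distal peaks were members, and 413 of 1190 were at places 8001 to 10000. Only 109 of 3285 were members at places 10001 to 15000, and 5 of 11589 beyond. Within the replicates the median place was 9898 in replicate 1, 9634 in replicate 2 and 9212 in replicate 3. The best of a member's places was in replicate 1 for 254 members, in replicate 2 for 273 and in replicate 3 for 318. All 3 places were within the first 6970 for 2 members, and none was for 537.

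**Figure D1:**
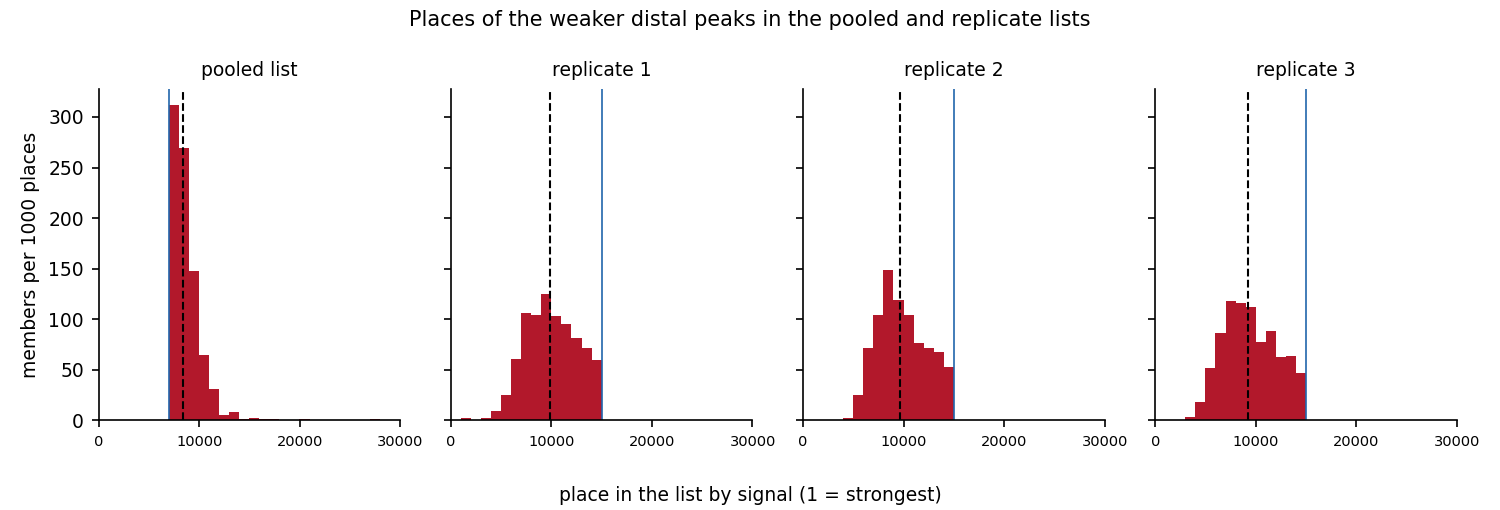
Number of members (vertical axis) per 1000 places in the pooled list and in the list of each replicate (horizontal axis, place by signal, 1 is the strongest). The dashed line is the median, and the blue line is the first member's place, 6975, in the pooled panel and place 15000 in the replicate panels, where the rule ends the distributions. Medians were 9898, 9634 and 9212 in replicates 1, 2 and 3.

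The rule kept each replicate summit of a member within 100 bp of the pooled one, so their closeness was set in advance. The median range between the outermost of the 3 summits was 62 bp. The limits of the rule were met by near neighbours on both sides. The 3 members nearest to the limit of 15000 had worst places of 14990, 14989 and 14988, and the next 3 peaks outside had 15006, 15009 and 15012. Summit distances reached 100 bp inside and began 1 bp beyond that outside, and 81 members had a largest summit distance over 90 bp. Distances to a TSS began at 503, 504 and 504 bp inside, and ended at 500, 499 and 494 bp outside. Of the lower-ranked distal peaks, 8786 were found in no replicate, 4783 in 1, 2203 in 2 and 845 in 3. Among those found in 2, replicate 1 was the missing one for 850, replicate 2 for 622 and replicate 3 for 731. For comparison, 88.1% of the 3105 optimal distal peaks were found in all 3 replicates by the same measure, as were 8.62% of the 6413 lower-ranked peaks at promoters.

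The rule did not use gene structure beyond the distance to start sites. Introns held 550 of the 845 members, or 65.1% (95% Wilson interval 61.8 to 68.2), and 223 members, or 26.4% (23.5 to 29.5), lay between genes. Coding exons held 16 members, or 1.89% (1.17 to 3.05), 3' UTRs held 32, or 3.79% (2.70 to 5.30), 5' UTRs held 8 and other exons held 16. Of all bases more than 500 bp from a TSS, 45.6% are intronic, 15.9% are coding and 31.5% are intergenic. The members' interval for coding exons lay wholly below the coding share of distal bases. Optimal distal peaks had an intronic share of 70.8% (69.1 to 72.3) and a coding share of 0.386% (0.221 to 0.674), so members stood between these and the other lower-ranked distal peaks, at 60.9% (60.2 to 61.7) and 9.45% (9.01 to 9.92).

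The coding share fell stepwise with the number of replicates that held a lower-ranked distal peak. It was 11.6% (10.9 to 12.3) for peaks found in none, 8.20% (7.45 to 9.01) for 1, 3.72% (3.01 to 4.60) for 2 and 1.89% for all 3, and only the intervals for 2 and 3 overlapped. The intronic share was 58.1% for none, 63.3% for 1 and 66.7% (64.7 to 68.6) for 2, an interval that overlapped that of the members. Pooled place moved with these shares. At places 6971 to 8000 coding exons held 1.57% (0.673 to 3.63) of members and 1.28% (0.435 to 3.69) of other lower-ranked distal peaks, and at places 8001 to 10000 they held 2.18% (1.15 to 4.09) and 2.83% (1.88 to 4.25). Intronic shares at places 8001 to 10000 were 66.6% (61.9 to 71.0) and 67.8% (64.5 to 71.0). Between places 10001 and 15000 the coding shares were 1.83% (0.505 to 6.44) and 4.88% (4.18 to 5.69), so at like pooled places the intervals of members and other peaks overlapped throughout. Each replicate's own distal peaks from place 6971 to 15000 were intronic in 64.5%, 65.3% and 62.3% of cases, a mean of 64.0% ± 1.57 (SD, n = 3), and coding in 4.62%, 4.93% and 7.78%, a mean of 5.78% ± 1.74 (SD, n = 3). The members' intronic share lay within that spread, and their coding share lay below all 3 replicates.

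**Figure D2:**
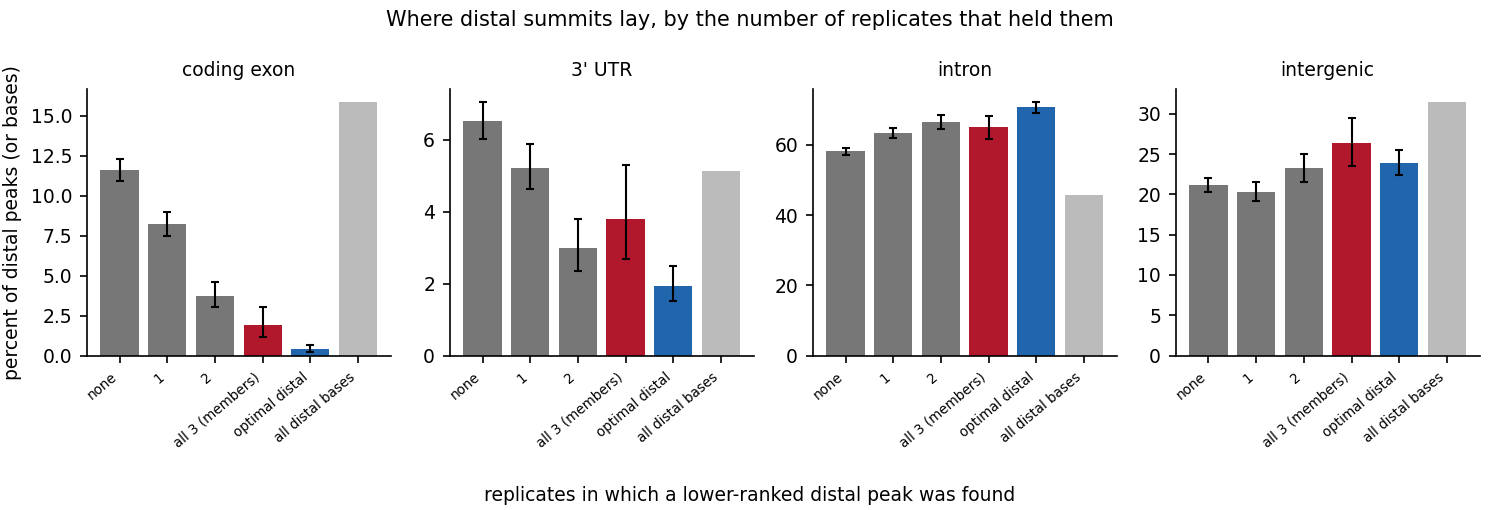
Percent of lower-ranked distal peaks (vertical axes) in coding exons, 3' UTRs, introns and intergenic sequence by the number of replicates in which they were found, beside optimal distal peaks and all bases more than 500 bp from a TSS. Bars with 95% Wilson intervals over peaks show the coding share dropping from 11.6% to 1.89% as the number of replicates goes from none to all 3.

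The 16 members in coding exons were unlike the rest in base content. Their mean G+C at the summit was 57.6%, against 34.1% for members in introns and 32.6% for those between genes. It was not compared with that of other coding sequence, so whether it is particular to members was not tested. One lay in the stress-response transcription factor gene Xrp1, with a pooled signal of 101.838 and places 6618, 7217 and 5553, all ahead of the members' lower quartiles of 8076, 8082 and 7493. Others lay in the leucine-rich repeat receptor gene trn, in Hsc70-4, which encodes a constitutive heat shock cognate chaperone, in osa, a subunit gene of the Brahma chromatin remodelling complex, and in Nrg, which encodes the adhesion protein neuroglian. The Hsc70-4 peak had places 7379, 13948 and 6918, so replicate 2 placed it far lower than the others. Members in 3' UTRs included dmrt99B, a gene of the doublesex family, and Calr, which encodes the chaperone calreticulin.

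Members tended to lie farther from start sites than the stronger peaks. Their median distance to the nearest TSS was 3245 bp, against 2409 bp for optimal distal peaks and 2752 bp for other lower-ranked distal peaks. More than 20 kb from any TSS lay 46 members, or 5.44% (4.11 to 7.18), against 2.61% (2.10 to 3.23) of optimal distal peaks and 3.37% (3.10 to 3.67) of the others. The intervals of members and of both other sets did not overlap there. The strongest member, in SKIP, was 32504 bp from a TSS, and the sNPF-R member was 26236 bp from one. The member in Ten-a, a teneurin gene whose product acts in the matching of synaptic partners, that lay in intron 19 was 48968 bp from a TSS and 74536 bp from an optimal summit. Members lay downstream of their nearest TSS in 61.7% (58.3 to 64.9) of cases, close to the 60.0% (58.2 to 61.7) of optimal distal peaks.

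**Figure D3:**
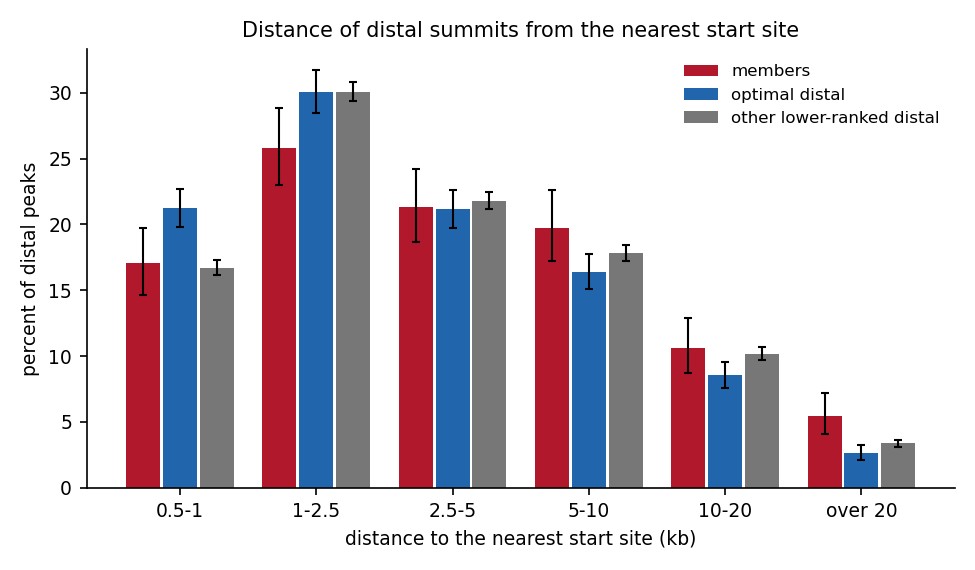
Percent of distal peaks (vertical axis) in 6 classes of distance from the nearest start site (horizontal axis, kb) for members, optimal distal peaks and other lower-ranked distal peaks, with 95% Wilson intervals over peaks. Members are the highest bar over 20 kb, at 5.44%.

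Among members in an intron of the canonical transcript, 195 of 491, or 39.7% (35.5 to 44.1), lay in intron 1. For optimal distal peaks this was 51.2% (49.0 to 53.5), an interval that did not meet that of the members, and for other lower-ranked distal peaks it was 43.0% (41.9 to 44.0), which overlapped it. The introns that held members had a median length of 12 kb, against 10.7 kb for optimal distal peaks. The members in nkd, kibra, Dg and ptc lay in intron 1, and those in fz and in mam lay in later introns.

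The members nearest to an optimal summit stood 199 bp from it, and so did the nearest of the other lower-ranked distal peaks, so the list held no closer pairs of these kinds. The median distance from a member to the nearest optimal summit was 4247 bp, against 4402 bp for other lower-ranked distal peaks. Members with an optimal summit within 1000 bp numbered 115, or 13.6% (11.5 to 16.1), and 237, or 28.0% (25.1 to 31.2), had none within 10 kb. Within 1000 bp, the share was 8.65% (8.08 to 9.26) for peaks found in no replicate, 15.6% (14.6 to 16.7) for 1 and 19.6% (18.0 to 21.3) for 2, so it rose with the number of replicates and then was lower for members. For each replicate's own distal peaks from place 6971 to 15000 it was 23.7% ± 1.89 (SD, n = 3). Peaks that match optimal ones were not removed from these, and 88.3% ± 1.94 (SD, n = 3) lay over 200 bp from an optimal summit. No member lay closer than 199 bp to one, so this share and the members' share come from unlike sets.

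Most of the 5 weakest members lay close to an optimal summit. The weakest of all, in intron 6 of wake, had a pooled signal of 30.2 and pooled place 27684, yet it had places 3939, 8413 and 11318 in the replicates and an optimal summit 199 bp away. The member in intron 2 of side-IV, an immunoglobulin superfamily gene, had pooled place 17573 and places 1843, 8865 and 6825, with an optimal summit 221 bp away. The member in intron 3 of Sema1a, an axon guidance gene, had pooled place 20363 and places 12959, 12491 and 11497, with an optimal summit 216 bp away. Of the 5 weakest, 4 had an optimal summit within 221 bp, and the remaining member, in CG46385, was 3611 bp from one. Of the 5 members with the best worst place in the replicates, 3 also lay beside an optimal summit. The member in intron 1 of shn, which encodes a zinc finger protein of the Dpp pathway, had places 4386, 5991 and 4453 and an optimal summit 200 bp away, and the member upstream of tara had places 1934, 6389 and 5227 and an optimal summit 208 bp away. The member in intron 3 of pnt, an ETS factor gene of the Egfr pathway, had places 5521, 7322 and 3367 at 203 bp. The other two, in intron 1 of Gdh and in a coding exon of Xrp1, had worst places of 7125 and 7217 and lay 1107 and 1583 bp from an optimal summit. Whether such members are shoulders of the stronger peak was not tested. Only 39 members, or 4.62% (3.39 to 6.25), had an optimal summit within 500 bp.

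In base content members were close to the optimal distal peaks. In 51 bp at the summit, members had a mean of 34.3% G+C, against 41.2% at 1000 bp to both sides. Optimal distal peaks had 33.1% at the summit and 41.1% beside it, and other lower-ranked distal peaks had 39.1% and 41.3%. Measured at the summit that each replicate gave a member, G+C was 35.3% in replicate 1, 34.8% in replicate 2 and 35.2% in replicate 3, a mean of 35.1% ± 0.274 (SD, n = 3), and the flanks had 41.1% ± 0.123 (SD, n = 3). Summit minus flank was -6.01 percentage points ± 0.314 (SD, n = 3), below 0 in all 3 replicates, but these summits belong to the same 845 regions and the rule held them within 100 bp of the pooled summit, so their small spread is no independent measure. Each replicate's own distal peaks from place 6971 to 15000, which were not chosen by the other replicates, had 37.1%, 37.2% and 39.2% at the summit, a mean of 37.8% ± 1.16 (SD, n = 3), and a smaller difference from their flanks of -3.35 percentage points ± 1.02 (SD, n = 3). An exact two-sided permutation test within 3 pairs gave p = 0.25 for both differences, the smallest p that this design allows. By the number of replicates that held a lower-ranked distal peak, summit G+C was 39.8% for none, 38.9% for 1, 36.7% for 2 and 34.3% for 3.

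The dip was narrow and had raised edges. G+C of members was back at 40.1% at 100 bp from the summit and reached 43.7% at 250 bp on one side and at 300 bp on the other, above the level 1000 bp away, and optimal distal peaks had the same shape with 43.8% at 250 bp. Within introns alone, members had 34.1%, optimal distal peaks 32.5% and other lower-ranked distal peaks 37.4%. Pooled place moved with base content as well. At places 8001 to 10000 members had 33.6% and other peaks 36.3%, at places 6971 to 8000 they had 34.3% and 35.0%, and at places 10001 to 15000 they had 37.1% and 36.8%. Members varied widely, with quartiles of 25.5% and 41.2% and extremes of 9.80% and 72.5%, and 165 of them, or 19.5% (17.0 to 22.3), had over 45% G+C. The 39 members with an optimal summit within 500 bp had 40.5%, and those without had 34.0%. An effect of base content on the amplification or alignment of reads was not tested.

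**Figure D4:**
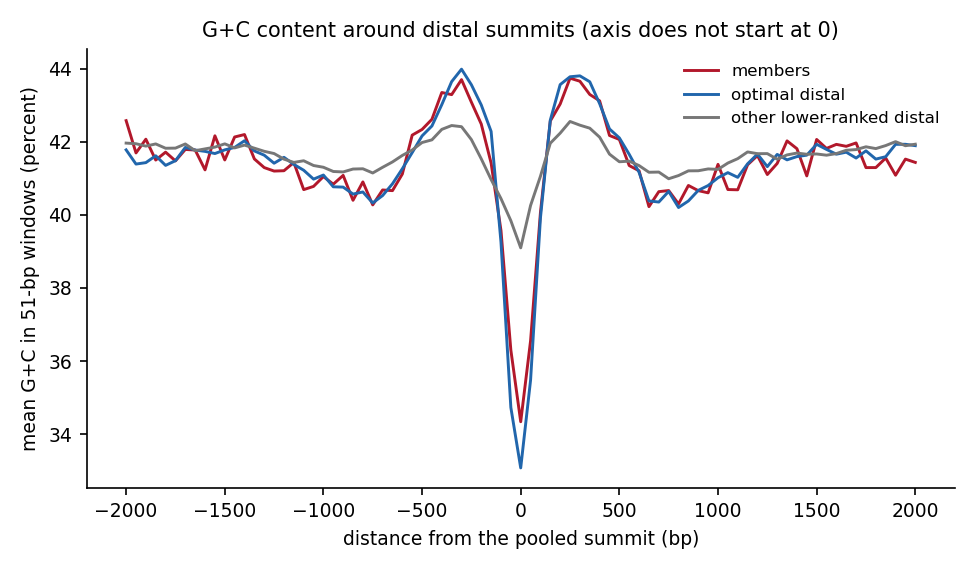
Mean percent G+C in 51-bp windows (vertical axis, not starting at 0) by distance from the pooled summit (horizontal axis, bp) for members, optimal distal peaks and other lower-ranked distal peaks. The lines for members and optimal distal peaks run together, with dips to 34.3% and 33.1% at the summit and edges near 43.7% and 43.8% at 250 bp, while the other peaks dip to 39.1%.

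Few short words tied to known factors stood out at the members. Of 25 words, searched on both strands within 100 bp of the summit, 3 had the highest ratios of summit to flank share among words in over 2% of members, and they are the words marked in the sequences above. TGTTTAC was in 51 members, or 6.04% (4.62 to 7.85), against 4.38% in the flanks, just below that interval, and 3.69% of all distal windows of that length. At the replicates' own summits it was in 6.15%, 5.68% and 5.92% of members, a mean of 5.92% ± 0.237 (SD, n = 3), and the flanks had 3.98% ± 0.0342 (SD, n = 3). The interval of the optimal distal peaks, 5.67% (4.91 to 6.54), overlapped that of the members, as did that of the other lower-ranked distal peaks, 5.07% (4.73 to 5.42). AGATAAG was in 27 members, or 3.20% (2.21 to 4.61), against 2.37% in the flanks and 2.30% of all distal windows, so the flank value lay within the members' interval. The run AAAAAAAA was in 151 members, or 17.9% (15.4 to 20.6), against 13.6% in the flanks and 10.6% of all distal windows. It was in 18.3% (17.0 to 19.7) of optimal distal peaks and 15.2% (14.7 to 15.8) of other lower-ranked distal peaks. Both intervals overlapped that of the members. At the replicates' own summits the run was in 17.9%, 18.0% and 17.6% of members. These words are themselves rich in A+T, as the summits are, and the part of base content in their shares was not tested. Within 50 bp of the summit the shares were 3.08%, 1.54% and 9.23% for the 3 words, about in proportion to the shorter window, so the matches were not gathered at the summit.

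A pair of words, a CA repeat and an E-box, were rarer at the summits than beside them. CACACACA was in 27 members, or 3.20% (2.21 to 4.61), against 6.21% in the flanks and 4.04% of all distal windows. CAGCTG, an E-box bound by basic helix-loop-helix proteins, was in 36 members, or 4.26% (3.09 to 5.84), against 7.57% in the flanks and 8.15% of all distal windows. In both cases the flank share lay above the members' interval. Optimal distal peaks also had lower shares at the summit, with 3.51% against 5.78% in the flanks for CACACACA and 5.76% against 8.44% for CAGCTG. Other lower-ranked distal peaks had 4.37% against 5.17% and 8.16% against 8.44%. The part of base content in these shares was not tested. At the replicates' own summits the members' shares were 4.34% ± 0.362 for CACACACA and 5.52% ± 0.246 for CAGCTG (SD, n = 3), nearer to their flanks of 6.17% ± 0.0904 and 7.51% ± 0.506. GAGAGAG, the word bound by GAGA factor, was in 28 members, or 3.31% (2.30 to 4.75), against 3.73% in the flanks, and CAGGTAG, bound by the early activator Zelda, was in 6 members, or 0.710% (0.326 to 1.54), against 0.947%. Neither differed from its flanks beyond the interval, and the absence of these letters from a window says nothing about the factors themselves.

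Among all 6-letter words, 561 of 2080 occurred within 50 bp of the summit in at least 5% of members. The 10 with the highest ratio of summit to flank share were chosen on these values, which are therefore a description. The highest ratio was that of GGTATA, which was in 6.04% of members and 2.60% of flank windows, against 2.90% of all distal windows, and in 4.61% of optimal distal peaks. The most frequent of the 10, AATATA, was in 23.0% of members and 11.0% of flank windows, against 11.6% of all distal windows, and in 22.5% of optimal distal peaks. ACAGTG, the one with an equal number of G+C and A+T letters, was in 8.40% of members and 3.91% of flank windows, against 3.69% of all distal windows. All 10 words also had a higher share at the summits than in the flanks of optimal distal peaks. The same held at other lower-ranked distal peaks, with ratios from 1.03 (GTAGAA) to 1.46 (AATATA). Such ratios were common: AGCTAA had 1.27 at optimal distal peaks, yet stood only at place 251 of the 561 words there. At the low end, GGCAAA was in 6.39% of members and 9.82% of flank windows.

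Members were spread over every arm. The X chromosome held 192, or 6.24% (5.44 to 7.15) of its lower-ranked distal peaks and 9.33 per Mb of distal sequence. Arm 3R held 208 (5.36%, 4.69 to 6.11), 2L held 152 (5.07%, 4.34 to 5.91), 3L held 168 (4.48%, 3.86 to 5.19) and 2R held 119 (4.46%, 3.74 to 5.31). Chromosome 4 held 6 (2.53%, 1.17 to 5.41). The X had the highest share and density of the 6, and its interval stood apart from those of 3L, 2R and 4 and overlapped those of 3R and 2L. Optimal distal peaks were densest on the X too, at 32.7 per Mb. Members on the X had 33.0% G+C at the summit and those on other arms had 34.7%. Windows mostly masked as repeats held 3.20% (2.21 to 4.61) of members, against 2.64% (2.13 to 3.27) of optimal distal peaks. Only 20 members lay within 1000 bp of another, in 10 pairs.

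The bodies of 484 of 13072 protein-coding genes with distal sequence held at least 1 member, which is 3.7% of them, and 1206, or 9.23%, held an optimal distal peak. Of these genes, 388 held 1 member, 64 held 2, 25 held 3 and 7 held 4 or more. The share rose with gene length: 0.466% of genes of 1 to 5 kb held a member, 6.16% of those of 5 to 20 kb, 23.5% of those of 20 to 50 kb and 42.0% of those over 50 kb. Per Mb of distal sequence there were 2.97 members in genes of 1 to 5 kb, 8.27 in those of 5 to 20 kb, 10.3 in those of 20 to 50 kb and 7.35 in those over 50 kb. Above 5 kb the density thus varied far less than the share of genes, while the shorter genes held fewer members for their distal sequence too.

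Genes with a member more often held a stronger distal peak as well, also among genes of like length. Of genes of 10 to 20 kb, 51.6% of the 95 with a member and 29.2% of the 869 without held an optimal distal peak. Of genes of 20 to 50 kb the shares were 72.3% of 166 and 42.2% of 540, and of those over 50 kb they were 81.4% of 129 and 42.1% of 178. An optimal peak at a promoter was also more frequent, at 66.3% against 40.5%, 51.8% against 35.7% and 51.2% against 25.3% in the 3 classes. Members and optimal peaks come from the same precipitations, so these counts are not independent readouts of a gene. Conversely, 99 of the 484 genes, or 20.5%, had neither an optimal promoter peak nor an optimal distal one. Over all 13072 genes, 32.6% had an optimal promoter peak and 9.23% an optimal distal one, so most of all genes had neither.

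**Figure D5:**
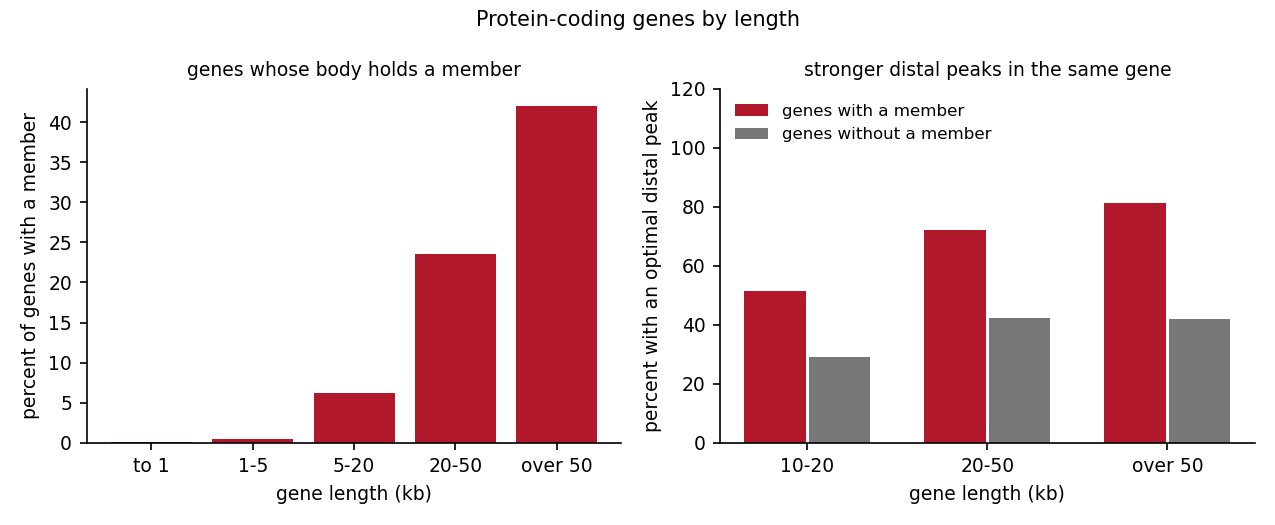
Left, percent of protein-coding genes whose body holds a member (vertical axis) by gene length (horizontal axis, kb). Right, percent of genes that hold an optimal distal peak among genes with and without a member, where genes with a member stand higher in all 3 length classes, for example 81.4% against 42.1% over 50 kb.

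The gene with the most members was kirre, on the X from 2740384 to 3134532, which encodes the adhesion receptor by which muscle founder cells attract their fusion partners. It held 8 members, all intronic, beside 19 optimal distal peaks, and had no optimal promoter peak. Intron 5 carried 4 of them, with summits at 3031977, 3033802, 3036724 and 3039911, 6273, 8098, 8330 and 5143 bp from the nearest optimal summit. The first had places 10924, 9451 and 10049, and the second had places 6766, 10507 and 9251. The third had places 9636, 6974 and 8549, and the last had places 9314, 8311 and 13222, so the places of these 4 ranged from 6766 to 13222. Next came CG43658 with 5 members, all in its intron 4, and Ten-a with 5.

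SKIP held 4 members, of which 3 lay in its intron 4, and CG32264 held 4. Glut4EF, a transcription factor gene, and CG46467 overlap and shared the same 4 members. Among short genes ptc, which encodes the Hedgehog receptor, stood out with 3 members in 15.575 kb, all in intron 1, beside 3 optimal distal peaks. Their pooled signals were 85.2, 106.591 and 66.3, and their places were 7166, 12330 and 9212 for the first, 6418, 6735 and 9953 for the second and 11668, 10633 and 14337 for the last. The RGS gene loco held 3 members in 19.42 kb, and Dg, which encodes dystroglycan, held 3 in 17.389 kb, all in intron 1. The lilli gene itself, 68.478 kb long, held no member beside its 7 optimal distal peaks, and reads of the native gene cannot be told apart from those of the transgene there.

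The lists of signalling and tissue genes differed widely in their members, and are read here against 3.7% of all genes and 7.63 members per Mb of distal sequence in gene bodies. Length matters to the first value. Median lengths were 11.5 kb for segment polarity, 19.1 kb for Notch, 22.3 kb for Egfr and Ras, and 10.4 kb for Hippo genes. Optimal distal peaks lay in 6 of 12, 3 of 9, 9 of 13 and 6 of 12 of these genes, against 9.23% of all genes. That share rises with length as well. Of genes of 10 to 20 kb, 51.6% of those with a member and 29.2% of those without held an optimal distal peak. For genes of 20 to 50 kb the shares were 72.3% and 42.2%. Whether these lists held more stronger peaks than genes of like length was not tested. Of 12 segment polarity genes 4 held 10 members, or 30.8 per Mb. Besides ptc these were the Wingless receptor genes fz, with 3 members and 9 optimal distal peaks, and fz2, with 2 members, and nkd, a Wingless antagonist gene, with 2. The segment polarity genes arm, ci and en held none. Of 9 Notch pathway genes 3 held 5 members, or 28.5 per Mb: the coactivator gene mam had 3, the ligand gene Ser 1 and the glycosyltransferase gene fng 1, while H, N and Nct had none. Ser and fng held no optimal distal peak in their bodies and no optimal peak within 500 bp of their own start sites. Optimal peaks in a gene body near the start site of another gene were not counted.

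Of 13 Egfr and Ras pathway genes 6 held 7 members, or 24.8 per Mb. The ETS activator gene pnt had 2, and the ETS repressor gene aop, the receptor gene Egfr, the kinase gene Raf, the secreted inhibitor gene aos and the intracellular inhibitor gene sty had 1 each, so both activators and inhibitors were among them. Dsor1, Ras85D and Sos had none. Of 12 Hippo pathway genes 2 held 4 members, or 21.9 per Mb: kibra, an upstream scaffold gene, had 3, all in intron 1, and the kinase gene wts had 1. Of 12 ecdysone response genes 5 held 8 members, or 13.8 per Mb, with 3 in the nuclear receptor gene ftz-f1, 2 in Eip74EF and 1 each in EcR, Eip75B and Hr39. These genes are long, with a median of 55.7 kb, and br, Hr3 and Hr4 held none.

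Of 17 muscle genes 4 held 11 members, or 15.0 per Mb, and 8 of these were those of kirre. Its partner across the fusion site sns, the muscle factor gene Mef2 and the tropomyosin gene Tm1 had 1 each. Of 8 homeotic genes Ubx and pb had 1 each, or 6.34 per Mb, and Abd-B, Antp and Dfd had none. Of 17 neural genes 2 held 3 members, or 8.62 per Mb, with 2 in the adhesion gene Fas2 and 1 in the fate determinant gene pros. Of 17 genes of the dorsoventral and Dpp pathways shn alone held members, 2 of them, or 7.72 per Mb, close to the value over all genes. Of 20 Polycomb and Trithorax group genes trx had 2 and osa had 1, or 15.8 per Mb. The gut, fat body and blood list had 2 members in the Friend-of-GATA gene ush, or 12.03 per Mb, and the epidermis and trachea list had 1 in trh, or 5.45 per Mb.

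No member lay in any of 11 maternal and gap genes, 9 pair-rule genes, 8 JAK/STAT pathway genes, 6 Super Elongation Complex genes, 11 translation initiation factor genes or 14 proteasome genes. Most of these genes are short, with median lengths of 3.37 kb, 2.53 kb, 7.41 kb, 8.88 kb, 4.10 kb and 1.20 kb in that order, and so offer little distal sequence in their bodies. The JAK/STAT genes Socs36E and Stat92E held 4 and 2 optimal distal peaks beside no member.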

How the data were processed

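Per the labels, chromatin of 3 biological replicates (1 group) was precipitated with an antibody to GFP. Per the file headers, a replicate's list came from reads of that replicate set against a control, a pooled list from all 3 together, and irreproducible discovery rate thresholds then gave the optimal list. Aligner and caller were not given in the sources used here. The signal of each peak is the authors' own deposited value against the control, used only to rank peaks within a list, and the deposited −log10 q-values were not used to choose or rank. Summit offsets came from the deposited lists. Lists on dm3 were not used.

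Coordinates are 1-based on dm6, with Ensembl release 115. Starts of transposable elements did not count as TSSs, and 15 members lie within 500 bp of one. A summit in several annotated features was assigned to an exon before an intron, and among exons first to the 5' UTR and then to coding sequence. Intervals are 95% Wilson intervals over peaks; they cover counting only and not differences between embryos. Depth is unknown. The replicate spread measures these 3 samples. Summit and flank G+C were compared within replicates by an exact permutation test. Shares of all distal windows come from consecutive windows more than 500 bp from a TSS. Named genes are hosts of the 10 strongest members, the 10 genes with most members, lilli, and per list up to 3 genes with most members and up to 3 with none; further genes, the weakest members and those with the best replicate places were chosen once their values were known. The members, words and gene lists were chosen with earlier results of these data known. Of the listed gene names, nos, Dl and tal matched no annotated symbol and were not analysed here, and 5 matched through older names. Alternatives varied the rule, windows and replicates. The matching of summits, the search for words and the G+C measure were tested on simulated data without close neighbouring summits. The other steps had no such test. The tools were matplotlib 3.10.9, scipy 1.17.1, pandas 2.3.3 and numpy 2.4.6 under Python 3.11.15.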

Additional observations from a re-analysis of the deposited data

How the results depend on the processing

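With 1 group, no samples pair across groups; summit and flank were compared within replicates. The number of members followed the rule: 422 with summits within 50 bp, 1878 within 250 bp, 148 in the first 10000 places, 1596 in the first 20000, and 1467 to 1695 when 1 replicate was left out and both others were required. Genes with a member numbered 279, 863, 107, 808 and 750 to 888 under these settings. In the same order, G+C at the summit was 33.9%, 37.2%, 33.8%, 35.0% and 34.5% to 36.0%, and it was 33.7% over 1000 bp from a TSS, 35.1% over 50 bp to each side of the summit and 34.0% without members near an optimal summit. It was below the flanks in all 15 alternatives, by 3.60 to 7.87 percentage points. The intronic share was 69.9% within 250 bp, 62.4% over 250 bp from a TSS, 62.9% with TSSs of protein-coding transcripts alone, and 65.0% to 66.3% without a replicate. The median distance to an optimal summit was 2049 bp within 250 bp, 3917 bp in the first 10000 places, 5049 bp over 1000 bp from a TSS, and 3587 to 3981 bp without a replicate. The run of A was in 17.3% (50 bp), 17.5% (250 bp), 20.3% (10000 places), 19.4% (1000 bp from a TSS), 17.6% (250 bp from a TSS, protein-coding TSSs, or no near optimal summit), 17.5% (middle of the peak), 9.23% (within 50 bp of the summit) and 16.6% to 19.2% (without a replicate). AGATAAG was in 4.05% (10000 places) and 1.54% (within 50 bp of the summit), and in 2.86% to 3.24% without a replicate. TGTTTAC was in 7.11% (50 bp), 6.76% (10000 places), 5.45% (20000 places), 6.28% (protein-coding TSSs), 3.08% (within 50 bp of the summit) and 5.43% to 5.86% (without a replicate). The coding share was 1.14% to 3.27% under alternatives chosen after seeing the data, as was counting starts of transposable elements as TSSs. It moved from the main value of 1.89% by no more than the SD of 1.74 over the replicates' own distal peaks. That SD is nearly as large as the main value, and those peaks had higher coding shares, of 4.62% to 7.78%. Beyond the counting that a wider rule or shorter window brings, the cause of these shifts was not tested. Of 709 other alternative values, 398 differed from the main value by no more than the spread (SD) between replicates. With 3 samples, that spread is itself coarse, and unknown depth limits how far weak peaks can be told from background.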
